A study of Mus musculus with 77 samples.

Results

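The genes described are the microtubule motors of axonal transport: the kinesin heavy chains (Kif), the kinesin light chains (Klc1 to Klc4), the chains of cytoplasmic dynein (Dync and Dynl) and the subunits of dynactin (Dctn). They were chosen by gene symbol alone, from the symbols in the 6 deposited count tables. No measured value entered the rule, but it was set with earlier results of these data known. Of 18104 genes listed over the 6 tables, 60 had such a symbol, 35 of them in all 6 tables. A mean above 1 FPKM (counts scaled by library total and transcript length) in at least 1 table was reached by 45 members. The other 15 were below it in every table and entered only the alternative fits without this filter. They were Dynlt1a, Dynlt1b, Kif11, Kif15, Kif18a, Kif18b, Kif20b, Kif23, Kif26a, Kif27, Kif4, Kif6, Kifc1, Kifc5b and Klc3, and 9 of them are mitotic kinesins. Dynlt1a and Dynlt1b, and Kifc1 and Kifc5b, are near-identical pairs whose reads the counting could split or drop. Each table kept its own set: 58 members were listed and 39 tested among the naive pull-downs, and 40, 42 and 39 were listed in the Isl1 pull-down, Isl1 input and Dhh pull-down time courses.

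Most proteins and organelles of an axon are made in or near the cell body and reach the axon by transport along microtubules. Kinesins walk mainly towards microtubule plus ends, which point to the axon tip, and cytoplasmic dynein with its activator dynactin walks back towards the cell body. In sensory neurons of the dorsal root ganglion (DRG) these motors also carry injury signals from a cut axon to the nucleus, and glia use the same motors over shorter distances, for example to move myelin cargo and RNA.

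Ribosome-associated RNA was collected from adult male mice in which Cre switches on an HA-tagged ribosomal protein (RiboTag), by HA immunoprecipitation (IP) from DRG lysate, and was sequenced beside the whole lysate (input) and, in naive mice, the supernatant left after the pull-down. In the naive series 5 lines carried the tag: Adv-Cre and Isl1-Cre (sensory neurons), Runx3-Cre (proprioceptive neurons), Dhh-Cre (glia) and PGK-Cre (all cells of the tissue). Cre was heterozygous in every line, and RiboTag was homozygous except in Adv, where it was heterozygous. The Adv and PGK lines were on C57BL/6 and the Isl1, Runx3 and Dhh lines on ICR, so Isl1, Runx3 and Dhh are compared within a strain, while line and strain cannot be told apart in contrasts with Adv or PGK. The injury series held naive mice and mice whose sciatic nerve had been injured 4, 12 or 24 h before, on ICR with homozygous RiboTag, as Isl1 IP (3 libraries a time), Isl1 input (3 naive and 2 at each time) and Dhh IP (3 libraries, 2 at 24 h). The same naive libraries serve all 3 times, no group is labelled as a sham operation, and in the injury series the labels name sensory neurons for Dhh IP too. Each IP reports the cells that the Cre driver marks, and where fewer cells of a type and less RNA per cell would both lower a level, they cannot be told apart in bulk libraries.

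Counts per library were 29710143 to 54088821 over the 76 libraries used. Levels are given as CPM (counts scaled to a library total of 1000000), which compare libraries, and as FPKM where genes are compared. Neuronal markers summed to 36807 to 38546 CPM in naive Isl1 IP and to 1356 to 2004 CPM in naive Dhh IP, and myelinating Schwann cell markers to 863 to 1017 CPM and 43206 to 43900 CPM, in the order of the line labels. In the Dhh IP time course the same neuronal list summed to 1148 to 1531 CPM and the Schwann cell list to 18479 to 27821 CPM, so these libraries go against their sensory neuron label and are called Dhh IP here. The naive pull-downs numbered replicate 2 stood apart from replicates 1 and 3 in the Adv, PGK and Runx3 lines, for example in Dync1li1 at 39.8, 31.5 and 42 CPM against 99.1 to 182 CPM, and in the Isl1 line it was replicate 1 that stood apart in the same way, at 90.6 CPM against 234 and 179.8 CPM. Deviations of Isl1 replicate 1 correlated with those of replicate 2 of PGK, Runx3 and Adv at 0.757, 0.707 and 0.507. Each of these 4 pull-downs also had the fewest counts of its line: 32848986 (Adv), 35832399 (PGK), 34695823 (Runx3) and 40987875 (Isl1). The part of depth was not tested. Counts are given beside the line comparisons without these 4 pull-downs, and without the pull-downs numbered 2 (the second pull-downs), which leaves Isl1 replicate 1 in. Nothing states whether the libraries of a group came from separate mice, and a p-value therefore reflects only how far these libraries spread, which may be technical. Proprioceptor markers summed to 3212 to 4304 CPM in Runx3 IP and 469 to 563 CPM in Isl1 IP. Neutrophil markers were also higher in Runx3 IP, at 64.1 to 223 CPM against 4.1 to 9.6 CPM, and their part in the Runx3 values was not tested.

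The stretches upstream of 4 start sites are shown because these genes carry the main patterns described: Kif5c and Klc1 stood far lower in glial than in neuronal pull-downs, Kif1c stood far higher, and Dync1li1 moved most after injury in Dhh IP. The windows lie at chr2:49619036-49619285, chr12:111758618-111758848, chr11:70700298-70700547 and chr9:114688581-114688789, all on the plus strand of GRCm38.p6, and the sequence is that of RefSeq, 5′ to 3′ and ending at the base before the start of transcription or of the earliest annotated exon. Capitals mark matches on either strand to the cAMP response element (TGACGTCA), the palindromic NRF1 motif of 10 bases and the Sp1 box (GGGCGG), chosen after the windows were read.
Kif5c: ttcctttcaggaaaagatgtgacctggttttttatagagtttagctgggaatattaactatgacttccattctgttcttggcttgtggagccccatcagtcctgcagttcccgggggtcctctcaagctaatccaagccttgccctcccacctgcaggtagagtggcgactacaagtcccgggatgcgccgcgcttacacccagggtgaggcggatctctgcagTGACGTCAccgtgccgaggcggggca
Klc1: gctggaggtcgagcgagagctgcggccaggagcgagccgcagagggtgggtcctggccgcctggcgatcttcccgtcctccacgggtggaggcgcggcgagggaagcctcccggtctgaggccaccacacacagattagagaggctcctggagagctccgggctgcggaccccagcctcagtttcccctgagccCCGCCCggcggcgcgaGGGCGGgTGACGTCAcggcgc
Kif1c: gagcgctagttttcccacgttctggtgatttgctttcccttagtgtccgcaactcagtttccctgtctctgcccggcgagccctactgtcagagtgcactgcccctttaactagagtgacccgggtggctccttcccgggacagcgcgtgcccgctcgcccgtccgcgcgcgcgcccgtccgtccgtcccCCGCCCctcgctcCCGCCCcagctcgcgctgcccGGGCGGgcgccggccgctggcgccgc
Dync1li1: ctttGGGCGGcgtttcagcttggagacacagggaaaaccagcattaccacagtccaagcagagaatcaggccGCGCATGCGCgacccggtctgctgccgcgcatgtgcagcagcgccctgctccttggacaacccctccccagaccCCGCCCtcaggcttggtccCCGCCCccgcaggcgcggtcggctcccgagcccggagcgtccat
Of the 60 members, 45 matched a RefSeq promoter entry. The cAMP response element was in 1.55% of the 32851 mouse windows of 250 bases and in 4 of the 45 members (Dctn3, Kif17, Kif5c and Klc1). The NRF1 motif was in 0.78% of windows and in 1 member, Dync1li1. The Sp1 box was in 32.74% of windows and in 30 members. The percentages are per window, while a member counted if any window of its symbol matched, so they are not in the same unit. These are letter matches and no binding was measured.

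In naive ganglia the motor genes as a set took a smaller share of the ribosome-associated RNA of glia than of neurons. Their summed level was 6033 to 6509 CPM in the 2 Dhh IP libraries, 17720 to 18797 CPM in Isl1 IP, 18832 to 19362 CPM in Adv IP, 19503 to 19607 CPM in Runx3 IP and 17251 to 17725 CPM in PGK IP, with no overlap between Dhh and any other line. Against Isl1 IP, 37 of 39 tested members passed an adjusted p of 0.1 (edgeR quasi-likelihood test, Benjamini-Hochberg over all genes), 31 lower and 6 higher in Dhh IP. Over all 10521 genes tested the same contrast called 85%, with 43.7% higher and 41.3% lower, so most genes were called and the members' share is read only with their direction. The median log2 change was -1.01 over the members and 0.05 over all genes, and 25 members differed by over 2-fold. Against Adv IP 34 of 39 were called, 29 of them lower (84.7% of all genes called), and against PGK IP 34, again 29 lower (82% of all genes). These 3 contrasts share the Dhh libraries. Without the FPKM filter the split was less uneven: of 58 members 15 were higher and 36 lower against Isl1, where 39.6% and 39.9% of all genes were, 15 and 35 against Adv, and 14 and 34 against PGK. Without the second pull-downs the counts were 38, 36 and 37, and without the 4 pull-downs that stand apart 39, 37 and 39. Whole-ganglion input of Dhh and Isl1 mice, taken before the pull-down, gave no call among 37 members, with 6 at an unadjusted p under 0.05 and 0 by DESeq2. Over all genes 0% were called there.

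**Figure D1:**
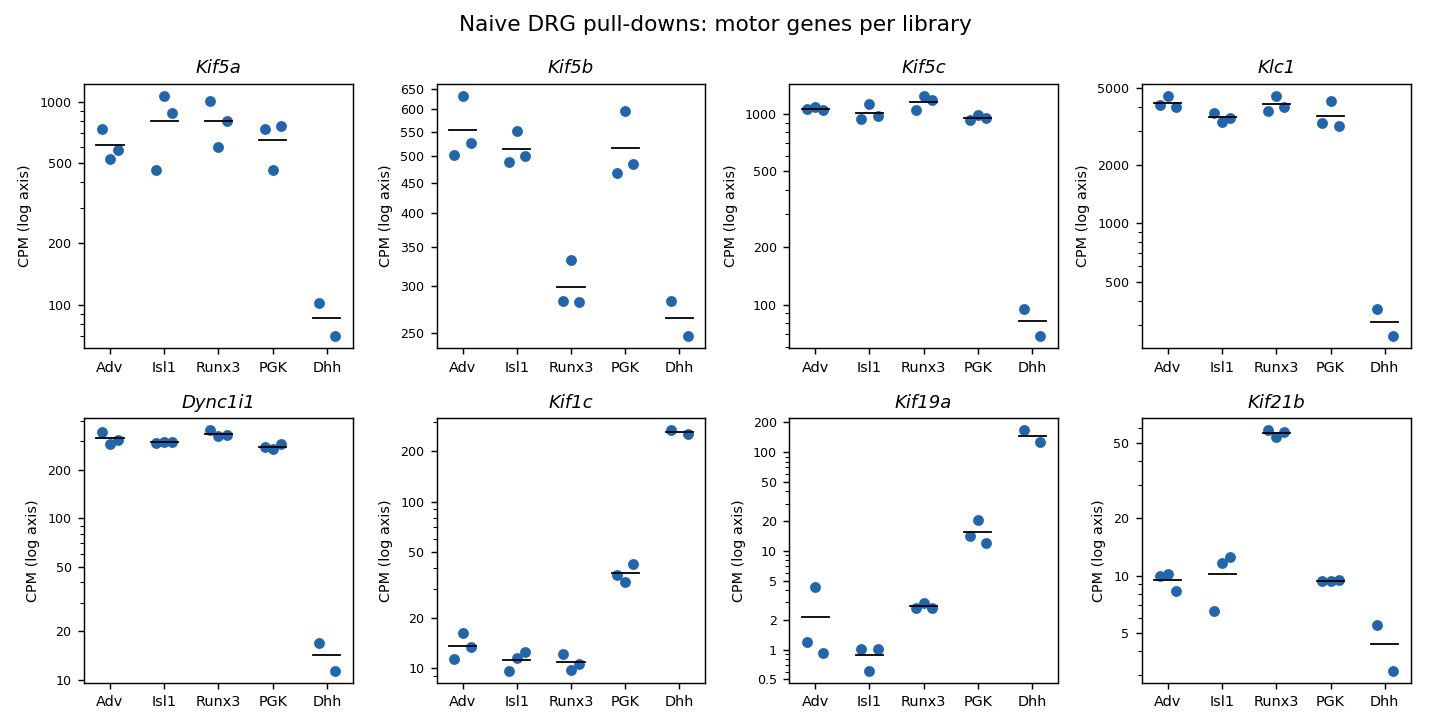
Level of 8 motor genes in each naive pull-down library (CPM, log axis), by Cre line, with a bar at the group mean. Kif5a, Kif5c, Klc1 and Dync1i1 sit lowest in the 2 Dhh libraries, Kif1c and Kif19a sit highest there, and Kif21b sits highest in the 3 Runx3 libraries.

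By the GENCODE M21 annotation of mm10, the genes plotted as the main patterns lie at chr10:127225696-127263348 (Kif5a, minus strand), chr2:49619298-49774778 (Kif5c, plus), chr12:111758849-111807844 (Klc1, plus), chr6:5725639-6028039 (Dync1i1, plus), chr11:70700548-70731964 (Kif1c, plus), chr11:114765388-114790739 (Kif19a, plus) and chr1:136131389-136177998 (Kif21b, plus). The counts cover whole genes and do not separate exons or isoforms.

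The kinesin-1 heavy chains, which drive fast anterograde transport, differed most in the 2 neuronal forms. Kif5c was at 936, 1122 and 979 CPM in Isl1 IP and at 95.3 and 68.4 CPM in Dhh IP, a log2 change of -3.47 ± 0.19 (SE, adjusted p = 9e-09, edgeR). Kif5a was at 462, 1073 and 879 CPM against 102 and 69.9 CPM (-3.06 ± 0.34, edgeR adjusted p = 3.7e-06). No Dhh library reached the lowest Isl1 library for either gene. Kif5b, the form made in most cell types, was at 488, 552 and 500.4 CPM against 283 and 247 CPM (-0.79 ± 0.20, edgeR adjusted p = 0.0032). Per length the order of the 3 chains therefore differed: in Isl1 IP Kif5a stood at 201 ± 78.1 FPKM (SD, n = 3), Kif5c at 148 ± 14.2 FPKM and Kif5b at 85.1 ± 5.59 FPKM, with Kif5a and Kif5c within their spread, and in Dhh IP Kif5b led at 43.9 ± 4.27 FPKM (SD, n = 2), over Kif5a at 21.5 ± 5.66 FPKM and Kif5c at 11.9 ± 2.78 FPKM.

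All 3 tested kinesin light chains, which couple kinesin-1 to cargo, were lower in Dhh IP. Klc3, which fell below the FPKM filter, went the other way in the fit without it (3.49 ± 0.64 over Isl1 IP, edgeR adjusted p = 0.000309). Klc1 was the most abundant motor gene of Isl1 IP per length, at 1553 ± 84.6 FPKM (SD, n = 3), and stood at 137 ± 30.7 FPKM in Dhh IP (n = 2). In CPM its libraries read 3725, 3341 and 3517 in Isl1 IP and 361 and 262 in Dhh IP, with log2 change -3.35 ± 0.25 (edgeR adjusted p = 1.1e-07). Klc2 read 341, 577 and 604 CPM against 41.4 and 34.5 CPM (-3.57 ± 0.46, adjusted p = 1.5e-05), and Klc4 differed by -0.76 ± 0.15.

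The 3 tested kinesin-2 genes were all lower in Dhh IP, and the kinesin-3 genes went in both directions. Of kinesin-2, whose Kif3a and Kif3b heterodimer carries membrane cargo and builds cilia, Kif3a was at 257, 343 and 318 CPM in Isl1 IP and 68.4 and 65.2 CPM in Dhh IP (-2.03 ± 0.16), while Kif3b differed by -0.64 ± 0.15 and Kif3c by -0.93 ± 0.33. Of kinesin-3, the carriers of synaptic vesicle precursors Kif1a and Kif1b differed by only -0.98 ± 0.16 and -0.41 ± 0.17 on the log2 scale. Kif1c, a broadly used kinesin-3, ran the other way: it was at 9.66, 11.5 and 12.6 CPM in Isl1 IP and at 268 and 255 CPM in Dhh IP (4.71 ± 0.17, edgeR adjusted p = 1.2e-09). Kif13a, which carries endosomal and receptor cargo, was at 21.1, 25 and 22.9 CPM against 98.2 and 81 CPM (2.12 ± 0.21). Per length, Kif1c in Dhh IP, at 39.1 ± 1.32 FPKM (SD, n = 2), stood within the spread of Kif1a, at 40.2 ± 5.9 FPKM, while in Isl1 IP they stood at 1.68 ± 0.222 FPKM and 89 ± 16.4 FPKM (n = 3).

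Kif19a, a depolymerizing kinesin known from mouse cilia, had the largest difference of the 39 tested members. It read 1.02, 0.61 and 1.02 CPM in Isl1 IP, 1.21, 4.26 and 0.92 CPM in Adv IP, 14.1, 20.5 and 12 CPM in PGK IP and 166 and 125 CPM in Dhh IP, with a log2 change of 7.52 ± 0.63 over Isl1 IP (edgeR adjusted p = 3.1e-07). Kifc3, a C-terminal motor, was higher by 1.22 ± 0.18, while its relative Kifc2 was lower, at 20.2 and 15 CPM in Dhh IP against 29.2, 42.1 and 47.7 CPM in Isl1 IP (-1.01 ± 0.19). Kif21a, a kinesin-4 that carries axonal cargo, was at 345 and 386 CPM in Dhh IP and 977 to 1148 CPM in Isl1 IP. Kif7, a regulator of Hedgehog signalling at the cilium tip, fell below the FPKM filter, which takes the mean over all naive pull-downs and so can drop genes high in glia alone. It was at 23.2 and 22.1 CPM in Dhh IP and at most at 0.529 CPM in Isl1 IP, and the fit without the filter gave a log2 change of 6.03 ± 0.40 (edgeR adjusted p = 3.28e-08). The same fit gave 9.33 ± 1.67 for Dynlt1b (edgeR adjusted p = 0.000455), above the change of Kif19a. In whole-ganglion input without the filter, Dynlt1b already differed by 8.29 ± 2.02 between Dhh and Isl1 mice, without a call (edgeR adjusted p = 0.305). Runx3 IP also stood above Isl1 IP for it, by 6.817 ± 1.875. Dhh IP over Dhh input gave 0.796 ± 1.029, not called, so its value is not read as a difference of glia.

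For the retrograde motor the 2 dynein-1 intermediate chains differed unequally. Dync1i1, the form of neurons, was at 292, 299 and 295 CPM in Isl1 IP and 16.9 and 11.3 CPM in Dhh IP (-4.23 ± 0.16, edgeR adjusted p = 1.3e-09), the largest fall in the family, and Dync1i2, the form made in most cells, was at 484, 443 and 400.0 CPM against 181 and 167 CPM (-1.19 ± 0.24). The heavy chain Dync1h1, the motor itself, differed by -0.69 ± 0.26 (354, 380.4 and 317 CPM against 198 and 189.8 CPM). Dync1li1, a light intermediate chain that binds cargo adaptors, differed by -2.31 ± 0.74 (edgeR adjusted p = 0.013), with wide spread inside the lines: it was at 90.6, 234 and 179.8 CPM in Isl1 IP and at 182, 31.5 and 173 CPM in PGK IP. All 6 dynactin subunits were lower, Dctn1 (the large subunit that binds dynein and the microtubule) at 124 and 129 CPM against 358, 608 and 525 CPM (-1.80 ± 0.28) and Dctn3 by -1.82 ± 0.17. Among the light chains Dynll1 was level, at 402 and 423 CPM in Dhh IP and 640.1, 388 and 421 CPM in Isl1 IP (-0.08 ± 0.22, adjusted p = 0.75), while its close relative Dynll2 was at 796 and 725 CPM against 2533, 2071 and 2200.4 CPM (-1.42 ± 0.18). Dync2li1, a chain of the dynein of cilia, was higher at 33.2 and 41.9 CPM against 16.4, 19.2 and 18.5 CPM (1.23 ± 0.15). The calls of Dync1h1, Kif1b and Kif3c were lost without Dhh IP replicate 3, those of Dynlrb1 without that library or Isl1 IP replicate 1, and those of Dynlrb2 (0.85 ± 0.43) and Kif16b (-0.41 ± 0.20) without either Dhh library or either of Isl1 IP replicates 2 and 3. Dynlrb2 also lost its call with RLE size factors and with DESeq2.

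**Figure D2:**
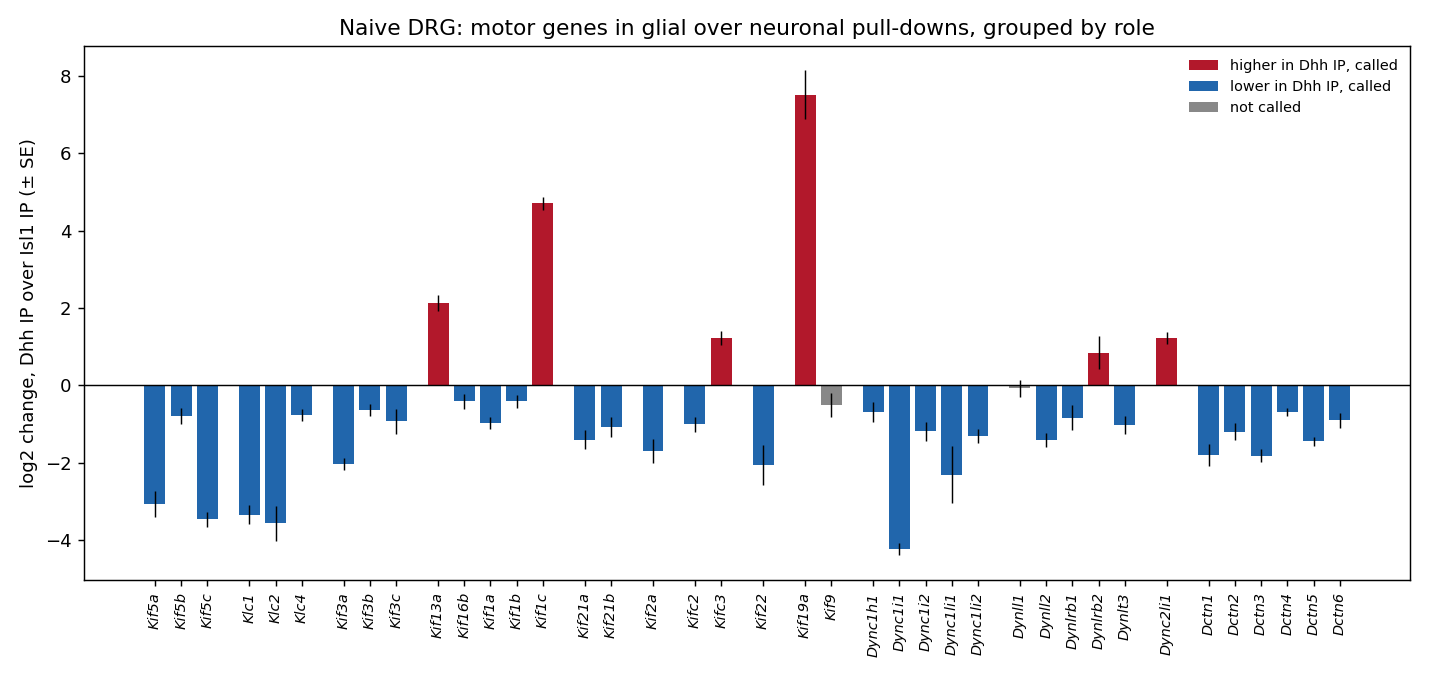
Log2 change of the 39 tested motor genes, Dhh IP over Isl1 IP in naive mice, with bars of 1 SE, grouped by role. Blue bars are the 31 genes lower in Dhh IP, red bars the 6 higher, and grey bars Dynll1 and Kif9, which were not called.

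Proprioceptive neurons differed from sensory neurons at large in single motor genes, in both directions, at a share near that of all genes. Runx3 IP differed from Isl1 IP in 21 of 39 members, 13 higher and 8 lower, where 55.3% of all genes were called (28% higher, 27.3% lower), and the members' median log2 change was 0.13 against 0.02 for all genes. Kif21b, a kinesin-4 that also regulates microtubule growth, was at 58.2, 53.9 and 57.4 CPM in Runx3 IP and at 6.47, 11.6 and 12.5 CPM in Isl1 IP (2.65 ± 0.23, edgeR adjusted p = 2e-06). It was at 8.26 to 10.1 CPM in Adv IP and 9.36 to 9.43 CPM in PGK IP, so the Runx3 libraries stood above every other naive pull-down. The FPKM filter takes the mean over all naive pull-downs, so the Runx3 libraries also helped Kif21b to pass it. Kif1b was at 1566, 1819 and 1657 CPM against 940.4, 1091 and 1021 CPM (0.91 ± 0.15, adjusted p = 0.00035). The other carriers with a higher level included Kifc2 at 73.8, 70.6 and 71.8 CPM (1.04 ± 0.17), Dync1h1 at 514, 614 and 583 CPM (0.88 ± 0.23), Kif3a (0.68 ± 0.13) and Kif1a (0.64 ± 0.14). Kif19a was also called higher, at 2.62, 3 and 2.61 CPM (1.81 ± 0.53), a level far under that of Dhh IP. Both Runx3 IP and Isl1 IP were below the FPKM threshold for Kif19a, which passed the filter through the other naive pull-downs. Kif5c differed by 0.37 ± 0.15 (adjusted p = 0.052), and Kif5a (0.17 ± 0.26) and Klc1 (0.40 ± 0.19) were not called.

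Lower in Runx3 IP were Dynll1, at 168, 172 and 190.3 CPM (-1.29 ± 0.20, edgeR adjusted p = 0.00019), and Kif5b, at 283, 332 and 282 CPM (-0.60 ± 0.18), both below every Isl1 and Adv library. Dynlrb2 was also called lower than in Isl1 IP, with log2 changes of -2.014 to -1.295 over the alternative runs. Dync1i2 was at 254, 301 and 279 CPM (-0.49 ± 0.21) while Dync1i1 was at 350.5, 325 and 326 CPM (0.35 ± 0.12). Against Adv IP 18 members were called, 9 in each direction, where 57.2% of all genes were, so neither count shows anything particular to the family. Dync1h1, Kif19a, Kif5c and Dync1i1, called against Isl1 IP, were not called against Adv IP. Kif21b, Kif1b, Kifc2, Kif3a, Kif1a, Dynlrb2, Dynll1, Kif5b and Dync1i2 were called against both, in the same direction. The 13 members called higher against Isl1 had a median transcript length of 4627 bases and the 8 lower ones 2330 bases. Over all genes the median change was -0.01 in the shortest tertile and 0.07 in the longest, and the part of length in the result was not tested. Leaving out any 1 library of these lines gave 17 or 18 calls against Isl1, while leaving out the second pull-downs gave 23 and leaving out the 4 that stand apart 25. Calls lost without some 1 library were those of Dync1i2, Kif5c, Dync1li2, Dynll2, Kif9, Kif16b, Kifc3, Dctn4 and Dctn6, and that of Dync2li1 was lost without the second pull-downs. Against Adv, 24 were called without the second pull-downs, 17 higher and 7 lower, and 28 without the 4 that stand apart, 18 higher and 10 lower.

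Between the 2 pan-neuronal drivers no motor gene passed the test with all libraries, and some did with the pull-downs that stand apart left out. Isl1 IP against Adv IP gave 0 calls among 39 members, with 4 at an unadjusted p under 0.05 and 0 calls by DESeq2, where 0% of all genes were called. The smallest p was that of Dync1h1 (-0.62 ± 0.23, edgeR adjusted p = 0.41). Without the 4 pull-downs that stand apart, 9 members were called, 6 higher and 3 lower in Isl1, where 12% of all genes were higher and 9.81% lower, an alternative that lowers the spread within groups by its construction. Isl1 IP against PGK IP, the pull-down from all cells, gave 3 calls, all lower in Isl1, where 20.1% of all genes were called. They were Kif19a (-4.12 ± 0.55, edgeR adjusted p = 0.00017), Kif1c (-1.68 ± 0.15, adjusted p = 2.1e-05) and Kif13a (-0.54 ± 0.19, adjusted p = 0.079), which are 3 of the 6 genes higher in Dhh IP than in Isl1 IP. That direction depended on the scaling, since 4 were called higher and 2 lower with RLE size factors, and 4 higher and 3 lower with DESeq2. The replicate block gave 2 higher and 3 lower. Leaving out Isl1 IP replicate 1, the second pull-downs or the 4 that stand apart gave 5 calls, and Kif13a lost its call without any 1 Isl1 library or without PGK IP replicate 2 or 3. Kif13a also lost it with RLE size factors and with only the groups compared.

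Pull-down and input of the same ganglia showed which motor RNAs each line's ribosomes gained or lost relative to the whole lysate. In Isl1 mice 12 of 38 members were called, 10 higher and 2 lower in IP (31.5% of all genes, 12% higher and 19.5% lower), and 19 when the fractions of a replicate were paired by a block. Without Isl1 IP replicate 2, 5 were called, and without the 4 that stand apart 20. The 2 lower genes were among those higher in Dhh IP than in Isl1 IP: Kif19a, at 12.1, 9.9 and 11.2 CPM in Isl1 input (-3.61 ± 0.42), and Kif1c, at 30.5, 33.9 and 43.1 CPM in input (-1.64 ± 0.15). The largest gain was that of Kif3c (0.90 ± 0.29). Adv mice gave 17 calls, 15 higher (47.6% of all genes, 22.4% higher and 25.2% lower), and the 2 lower were the same genes, Kif19a by -2.77 ± 0.40 and Kif1c by -1.09 ± 0.15.

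Runx3 mice gave 30 calls, 20 higher and 10 lower (73.3% of all genes, 35.9% higher and 37.4% lower). Kif21b rose from 6.63 to 7.86 CPM in Runx3 input to the 53.9 to 58.2 CPM of the pull-down (3.16 ± 0.21, edgeR adjusted p = 1.3e-11). Its mean was under 1 FPKM in naive input, so it entered this fit through the pull-downs, where Runx3 stood highest. Klc2 (1.79 ± 0.43), Kif3c (1.44 ± 0.29) and Kif1b (1.41 ± 0.13) followed. Dynlrb2 (-2.58 ± 0.41) and Dynll1 (-1.40 ± 0.15) were lost from the pull-down. In Dhh mice the direction turned: 31 members were called, 25 lower and 6 higher (85.2% of all genes, 44% higher and 41.2% lower). Dync1i1 was at 256 to 281 CPM in Dhh input, so the change to the pull-down was -4.14 ± 0.16, followed by Kif5c (-3.20 ± 0.17) and Klc1 (-3.18 ± 0.25), and the higher genes were led by Kif19a (3.38 ± 0.41), Kif1c (2.90 ± 0.16) and Kif13a (1.79 ± 0.18).

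In PGK mice, where every cell carries the tag, IP and input differed in 11 members, 7 higher and 4 lower (18.9% of all genes, 8.62% higher and 10.3% lower), and in 17 with the fractions of a replicate paired. The largest gains were Kif3c (1.00 ± 0.29) and Kif3b (0.74 ± 0.13), and the losses were Dynlrb1 (-0.79 ± 0.23), Dynll1 (-0.77 ± 0.15), Dctn4 and Dctn5. Without PGK input replicate 2 there were 4 calls, without PGK IP replicate 1 or 3 there were 6, and without the 4 pull-downs that stand apart 17. Kif3b and Kif3c were both called higher in IP than in input in the Isl1, Adv, Runx3 and PGK lines, and in Dhh mice Kif3b was called (0.30 ± 0.15) and Kif3c was not (0.49 ± 0.32). Members called higher in PGK IP had a median transcript length of 5635 bases and those lower 1781 bases. The lengths were 3764 and 3032 in Runx3, 4534 and 3161 in Dhh, 5131 and 5058 in Isl1 and 3277 and 5058 in Adv mice. Over all genes the median change in the shortest and longest tertile was -0.13 and 0.13 in PGK mice. It was -0.21 and 0.19 in Runx3, -0.25 and 0.39 in Dhh, -0.05 and 0.1 in Isl1 and -0.05 and 0.08 in Adv mice. The part of length was not tested. Supernatant and input, averaged over the 5 lines, differed in 12 of 37 members by at most 0.34 on the log2 scale, 7 higher and 5 lower (20.6% of all genes, 10.5% higher and 10% lower), and in 20 with the replicate paired. Kif1b was higher in the supernatant (0.34 ± 0.08), and Dynll1 and Dynlrb1 were lower (-0.33 ± 0.06 and -0.33 ± 0.08). The genes higher in the supernatant had a median transcript length of 5992 bases and the lower ones 1354 bases, with a median of -0.09 in the shortest and 0.07 in the longest tertile of all genes, and the part of length was not tested.

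After sciatic nerve injury few motor RNAs on neuronal ribosomes passed the test. At 4 h 0 of 40 members were called in Isl1 IP, with 11 at an unadjusted p under 0.05 and 2 calls by DESeq2, where 3.05% of all genes were called by edgeR. At 12 h 3 were called (5.05% of all genes) and at 24 h 5 (18.5% of all genes). The kinesin-1 motor shows the size of the changes: Kif5a was at 1319, 1328 and 1387 CPM in naive Isl1 IP, 1362, 1632 and 1518 CPM at 4 h, 1378, 1228 and 1473 CPM at 12 h and 1275, 1586 and 1385 CPM at 24 h, with overlap at every time and log2 changes of 0.17 ± 0.09, 0.03 ± 0.09 and 0.10 ± 0.09. Klc1 changed by 0.02 ± 0.05, 0.03 ± 0.05 and 0.00 ± 0.05. The summed level of all members was 16996 to 18922 CPM over the 12 Isl1 IP libraries.

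Of the few that moved in Isl1 IP, Kif22, a chromokinesin of dividing cells that also binds DNA, rose most. It was at 3.73, 3.19 and 2.51 CPM in naive libraries and 7.47, 6.4 and 5.45 CPM at 24 h, without overlap (1.06 ± 0.18, edgeR adjusted p = 0.0013), and in Isl1 input it went from 3.3, 3 and 2.96 CPM to 7.2 and 7.14 CPM (1.25 ± 0.18, adjusted p = 0.0022). The single dividing-cell marker of 8 that these tables list was at 2.67 to 3.21 CPM in naive Isl1 IP and 3.55 to 4.62 CPM at 24 h, and at 2.86 to 3.73 CPM and 3.18 to 3.35 CPM in input, and its part was not tested. Kif26b, a kinesin of cell adhesion signalling, fell at 24 h from 22, 21.1 and 20.1 CPM to 14.6, 16 and 14.7 CPM (-0.45 ± 0.10, edgeR adjusted p = 0.007) and at 12 h by -0.36 ± 0.09. The other calls at 24 h were Kifc3 (-0.41 ± 0.13), Kif3b (0.22 ± 0.05) and Dctn4 (0.17 ± 0.05), and at 12 h Dctn4 (0.20 ± 0.05) and Kif16b (-0.36 ± 0.09).

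These counts moved with single libraries. At 12 h leaving out Isl1 IP replicate 1 or 3 of that time left 1 call, and leaving out replicate 2 of that time or any 1 naive library left none. At 24 h the count was 11 without replicate 1 of that time, 8 without replicate 2 and 3 without naive replicate 2, and Kif22, Kif26b and Kif3b kept their call under every alternative run.

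In whole-ganglion Isl1 input 2 of 41 members were called at 4 h (1.28% of all genes), 1 at 12 h (4.48% of all genes) and 1 at 24 h (8.42% of all genes). Dync1h1 was at 581, 563 and 587 CPM in naive input and at 1012 and 780.0 CPM at 4 h (0.69 ± 0.12, edgeR adjusted p = 0.033), and at 623 and 616 CPM at 12 h. In Isl1 IP it was at 548, 794 and 671 CPM at 4 h against 452, 469.6 and 486 CPM, which did not pass (0.52 ± 0.16, adjusted p = 0.13). The input call was lost with 4 h replicate 2, naive replicate 1 or naive replicate 2 left out, which left 0 calls at that time. Kif13b was the other (0.39 ± 0.09, adjusted p = 0.099), lost without any 1 of the 5 libraries. At 12 h Kif19a was at 4.39 and 2.52 CPM against 9.93, 7.83 and 8.74 CPM in naive input (-1.30 ± 0.30, adjusted p = 0.059), a call lost without replicate 3 of that time or naive replicate 1 or 2. At 24 h the count was 5 without replicate 3 of that time. Myelinating Schwann cell markers in input summed to 3284 to 3772 CPM in naive libraries and 2335 to 2827 CPM at 12 h, and their part in the Kif19a value was not tested.

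Whether the response on ribosomes differed from that of the lysate was tested directly as the Isl1 IP response minus the input response. No member of 40 was called at 4, 12 or 24 h, where 0.0265%, 0.0177% and 0% of all genes were called. At an unadjusted p under 0.05 there were 0, 1 and 0 members, and DESeq2 called 0, 1 and 0.

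Glial pull-downs differed from naive ones mainly at 12 h. In Dhh IP 0 of 39 members were called at 4 h, with 5 at an unadjusted p under 0.05 and 0 by DESeq2 (1.15% of all genes by edgeR), 12 were called at 12 h, 7 higher and 5 lower (32.9% of all genes, 17.3% higher and 15.6% lower), and 1 at 24 h (2.68% of all genes). The share of members called at 12 h, 30.8%, is close to that of all genes, so it shows nothing particular to the family, and the genes below are described singly. Without naive Dhh IP replicate 2 there were 7 calls.

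Dync1li1 rose most in Dhh IP at 12 h. It was at 24.8, 23.5 and 21.1 CPM in naive libraries, 27.3, 28.2 and 22.7 CPM at 4 h, 51.1, 62.5 and 65.6 CPM at 12 h and 27.3 and 29 CPM at 24 h (at 12 h 1.56 ± 0.17, edgeR adjusted p = 1.5e-05). All 12 h libraries lay above all others, and the level was back near the naive one at 24 h. In Isl1 IP it was at 271 to 292 CPM in naive libraries and 269.9 to 281 CPM at 12 h. Without injury, Dync1li1 also spread widely between replicates of a line in the Adv, Isl1, Runx3 and PGK pull-downs of the naive series. The part of such a library effect in the rise at 12 h was not tested. Kif21a followed, from 754, 888 and 767 CPM to 1027, 1019 and 907 CPM at 4 h and 1167, 1428 and 1404 CPM at 12 h, then 695 and 763 CPM at 24 h (at 12 h 0.92 ± 0.12, edgeR adjusted p = 9.6e-05). Its 12 h libraries also stood above all others of the course. Smaller rises were those of Kif5b, at 865, 974 and 826 CPM against 728, 789.6 and 728 CPM (0.43 ± 0.10), Kif5a and Kif3c (0.39 ± 0.13 each, the latter with overlap in CPM), Kif1a (0.32 ± 0.11) and Kif1b (0.24 ± 0.09).

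The small rises depend on how libraries are scaled. The TMM factors, which scale libraries by the bulk of their genes, were 0.86 to 0.954 at 12 h and 1.03 to 1.05 in naive Dhh IP. Kif1b, for example, read 2232, 2194 and 2092 CPM at 12 h and 2162, 2116 and 1972 CPM in naive libraries, so its groups overlap in CPM. Kif1b lost its call without 12 h replicate 2 or any 1 naive library, Kif1a without naive replicate 1 or 3, Kif3c without naive replicate 2 and Kif5a without naive replicate 3. Kif1a and Kif1b also lost theirs when only the groups compared were fitted.

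Dynll1, the light chain that dynein shares with many other complexes, fell most in Dhh IP at 12 h: it was at 74.8, 102 and 87.1 CPM in naive libraries, 65.8, 70.5 and 80.1 CPM at 4 h, 33.4, 40.6 and 26.4 CPM at 12 h and 59.5 and 64 CPM at 24 h (at 12 h -1.22 ± 0.16, edgeR adjusted p = 9.4e-05). The 12 h libraries lay below all others. Dync2li1 fell from 14.1, 13 and 15.9 CPM to 6.12, 7.16 and 4.69 CPM (-1.08 ± 0.22, adjusted p = 0.0022), Kif7 from 13.5, 14.8 and 10.8 CPM to 8.47, 6.96 and 3.53 CPM (-0.88 ± 0.29), and Kif19a (-0.49 ± 0.21) and Dctn5 (-0.39 ± 0.15) by less. Kif19a lost its call without any of 4 single libraries (12 h replicates 1 and 2, naive replicates 1 and 2), and Kif7 and Dctn5 lost theirs without 12 h replicate 3 or naive replicate 2. The call of Kif19a was also lost with RLE size factors, with the replicate block and with only the groups compared, and that of Dctn5 with the last of these. At 24 h Kif24, a microtubule-depolymerizing kinesin, was at 13.7 and 11 CPM against 6.38, 4.99 and 4.57 CPM (1.20 ± 0.27, edgeR adjusted p = 0.036), a call lost without 24 h replicate 1 or naive replicate 2 or 3.

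Several other values moved with the 12 h response. The 7 members that rose had a median transcript length of 6032 bases and the 5 that fell 2030 bases, where the tested members had 3533. Over all genes the median change was -0.12 in the shortest tertile (up to 2302 bases) and 0.08 in the longest (from 3998 bases). Neuronal markers in Dhh IP summed to 1148 to 1391 CPM in naive libraries and 1377 to 1531 CPM at 12 h, and satellite glia markers to 13876 to 16811 CPM and 11548 to 12934 CPM. Without overlap, the single macrophage marker of 6 that the table lists went from 0.118 to 0.352 CPM in naive libraries to 2.12 to 5.03 CPM at 12 h, and the 3 listed proprioceptor markers of 6 from 593 to 642 CPM to 437 to 452 CPM. The 2 listed endothelial markers of 5 were at 16.3 to 23.2 CPM and 6.76 to 16.5 CPM. The part of length, of neuronal RNA and of cell make-up was not tested. Kif5c and Klc1, which were far higher in the neuronal pull-downs, were at 120.3, 137 and 119 CPM and 77.6, 78.4 and 57.5 CPM at 12 h against 127 to 135 CPM and 76.2 to 90.8 CPM in naive libraries.

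The difference between the neuronal and the glial response was tested on 35 members as the Isl1 IP response minus the Dhh IP response. At 4 h 0 were called, with 3 at an unadjusted p under 0.05 and 0 by DESeq2 (0.916% of all genes by edgeR), and at 24 h 0, with 5 at an unadjusted p under 0.05 and 2 by DESeq2 (2.95% of all genes by edgeR). At 12 h 7 were called (25.7% of all genes). Dync1li1 (-1.55 ± 0.15), Kif21a (-0.90 ± 0.15), Kif3c (-0.46 ± 0.14) and Kif5b (-0.41 ± 0.12) rose more in glia. Dynll1 (1.15 ± 0.19), Dync2li1 (1.07 ± 0.21) and Dctn5 (0.40 ± 0.13) fell more in glia. In Isl1 IP the change at 12 h was between -0.09 and 0.00 for each of the 7. The call of Dctn5 was lost without naive Dhh IP replicate 2.

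**Figure D3:**
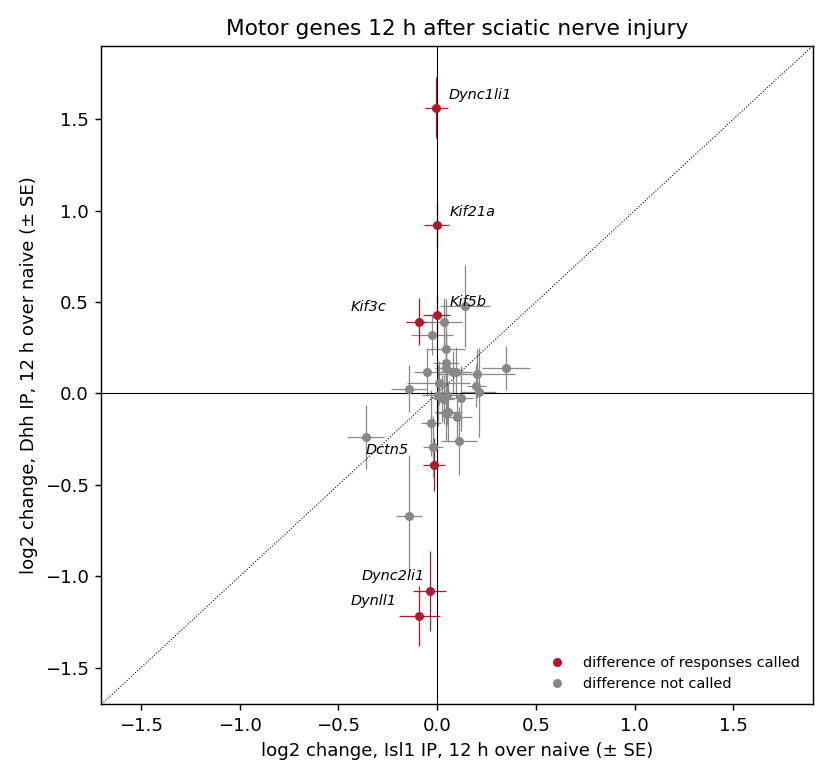
Log2 change 12 h after injury of the motor genes tested in both courses, Isl1 IP (horizontal) against Dhh IP (vertical), with bars of 1 SE and a dotted line of equal change. The 7 named red points are the genes whose responses differed, and they spread along the Dhh axis from -1.22 for Dynll1 to 1.56 for Dync1li1.

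**Figure D4:**
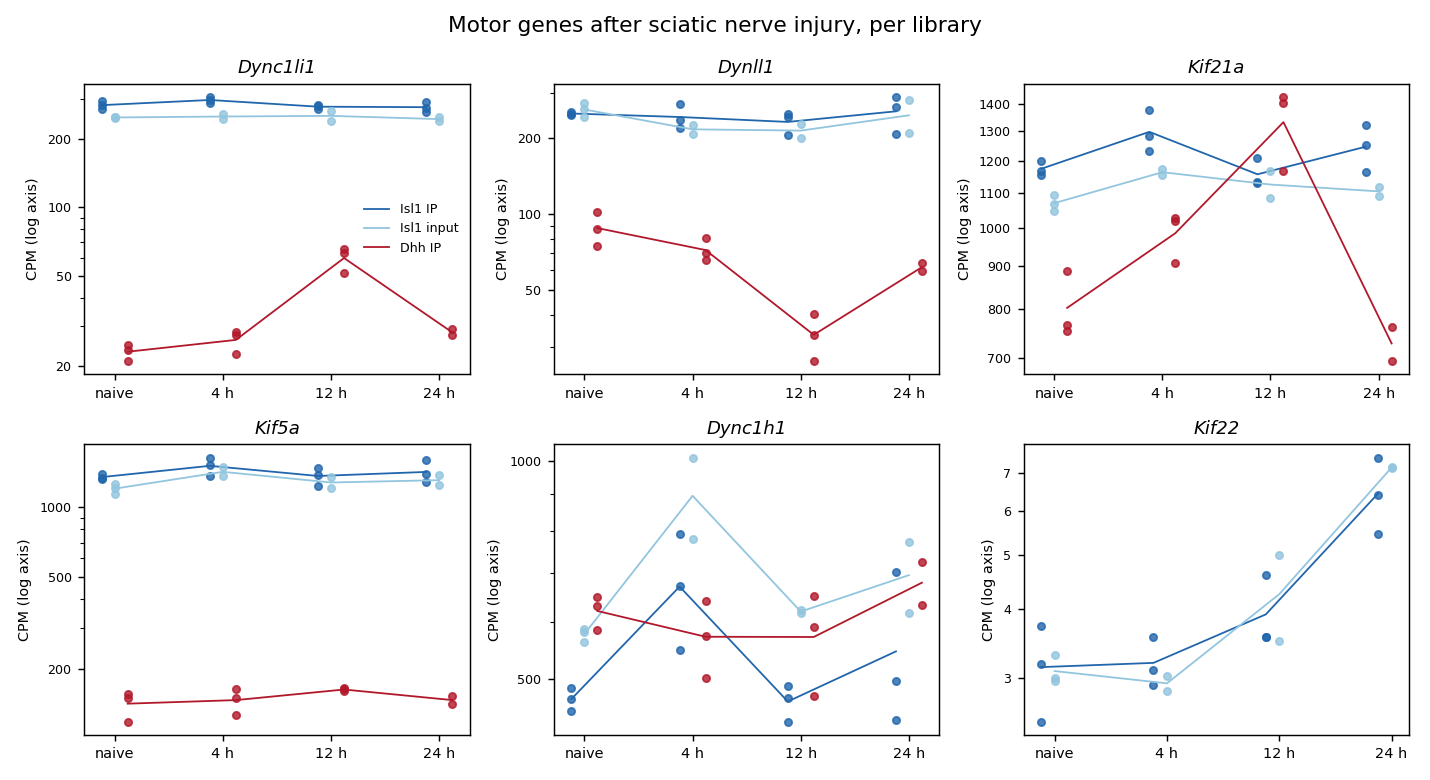
Level of 6 motor genes in each library of the injury courses (CPM, log axis), with lines through the group means of Isl1 IP, Isl1 input and Dhh IP. Dync1li1 and Kif21a peak and Dynll1 dips in Dhh IP at 12 h, Kif5a lies between 119 and 165 CPM in Dhh IP, far below its level in Isl1 IP and input, Dync1h1 is highest in Isl1 input at 4 h, and Kif22 is highest at 24 h in Isl1 IP and input.

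Naive Dhh IP was measured in both series, and the motor levels in them stood apart. In the 5-line series and the time course Dynll2 was at 725 to 796 CPM and 25.5 to 32.9 CPM, Dynll1 at 402 to 423 CPM and 74.8 to 102 CPM, Kif1c at 255 to 268 CPM and 71.2 to 77.8 CPM, and Kif19a at 125 to 166 CPM and 24.2 to 32.5 CPM. Kif5b went the other way, at 247 to 283 CPM and 728 to 789.6 CPM, as did Kif1b, at 639.7 to 725 CPM and 1972 to 2162 CPM, and Dync1h1, at 189.8 to 198 CPM and 584 to 648 CPM. Naive Isl1 IP was also measured in both series, and Kif5a, Dync1h1 and Dync1li1 differed there without overlap. The tables were made separately and no test was run across them, so levels of motors, glial or neuronal, hold within a series. In both, Kif5b led the kinesin-1 heavy chains of Dhh IP per length: in the time course it was at 124 ± 5.87 FPKM (SD, n = 3), over Kif5a at 35.6 ± 5.09 FPKM and Kif5c at 19.1 ± 0.573 FPKM.

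The proteins that link motors to cargo and tracks were read from 2 further lists, 30 adaptors and regulators and 21 microtubule-associated genes. Between naive Dhh and Isl1 IP 13 of 25 tested adaptors were lower in Dhh and 4 higher, with a median log2 change of -0.77 where all genes had 0.05. Of all genes 85% were called in this contrast, 43.7% higher and 41.3% lower. The lower ones included Grip1 (-4.28 ± 0.93), Mapk8ip2, a JNK scaffold that binds kinesin-1 (-3.64 ± 0.25), Kifap3, the subunit that links kinesin-2 to cargo (-1.91 ± 0.10), and Pafah1b1, the dynein regulator LIS1 (-1.63 ± 0.12). Nde1 and Hook3, both dynein partners, were higher in Dhh (4.55 ± 0.20 and 1.92 ± 0.17), while Ndel1, the close relative of Nde1, was lower (-1.88 ± 0.26). Of 12 microtubule-associated genes 7 were lower and 4 higher, led by the tubulin-binding stathmins Stmn3 (-4.65 ± 0.62) and Stmn2 (-4.46 ± 0.21), and Dcx (-3.65 ± 0.34). Between Runx3 and Isl1 IP 10 adaptors were higher and 3 lower of 25, where 55.3% of all genes were called, and the doublecortins Dcx (-3.86 ± 0.29) and Dclk1 (-2.98 ± 0.18) were far lower in Runx3.

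After injury the adaptors in Isl1 IP gave 1 call at 4 h, 2 at 12 h and 3 at 24 h of 28 tested, and the microtubule-associated genes 0, 0 and 3 of 20, where 3.05%, 5.05% and 18.5% of all genes were called. At 24 h Stmn4 rose by 1.35 ± 0.19 (edgeR adjusted p = 0.00038) and Ndel1 by 0.32 ± 0.05. In Dhh IP at 12 h 7 adaptors rose and 2 fell of 25, and 8 microtubule-associated genes rose of 19 with none lower, where 17.3% of all genes were called higher and 15.6% lower. They included Plekhm2, which links kinesin-1 to lysosomes (1.33 ± 0.17), Rhot1, the mitochondrial receptor of kinesin-1 (0.59 ± 0.12), Dclk1 (0.91 ± 0.16) and Map1b (0.77 ± 0.11). Pafah1b1 rose by 0.33 ± 0.10 and Kifap3 fell (-0.41 ± 0.12).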

How the data were processed

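The sources for the steps before deposit are the study's methods: ribosomal RNA was depleted, the cDNA amplified and sequenced in pairs, the reads aligned with STAR to mm10 and then counted by HTSeq on RefSeq genes. Among tools and builds the submitters list CASAVA 1.8.2, edgeR, mm9 and mm10. The authors deposited 6 tables of unnormalized read counts, each with its own set of genes, and beside each count a normalized signal, which the authors made by scaling it with 1 factor per library and which was not used for any value reported. The strand setting of the counting was not given in the sources read, so overlapping and antisense genes are uncertain. Count columns were used for 76 of 77 samples, since none was analysed for naive Dhh IP replicate 2. Gene symbols turned into dates, 23 at most in a table, were recovered by accession.

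Tests used edgeR 4.0.16 (quasi-likelihood, TMM scaling, R 4.3.3) on the counts of all genes with a mean above 1 FPKM over the libraries of the fit, with Benjamini-Hochberg adjustment over all genes tested and calls at an adjusted p under 0.1, the threshold of the study. FPKM used GENCODE M21 transcript lengths. Standard errors were derived from the log2 change and its F statistic. Each fit held all groups of its table or tables. The text names a fixed list of core motors and, in each comparison, up to 6 called members in each direction. The members and lists were chosen with earlier results of these data known. Alternatives were DESeq2 1.42.0, RLE size factors, no FPKM filter, only the groups compared, a replicate block, leaving out each library, leaving out the second pull-downs, and leaving out the 4 pull-downs that stand apart (the last 2 chosen after seeing the data). Steps were tested on simulated data.

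Replicate numbers were checked for pairing by correlating the deviations of same-numbered libraries from their group means. Fractions of 1 lysate are paired by origin, and the correlation was 0.226 to 0.714 in 9 pairs of Isl1 IP and input of the injury series, -0.12 to 0.846 in 14 naive pairs of IP and input, and -0.137 to 0.904 in 15 pairs of input and supernatant. Between lines, same-numbered pull-downs of Adv, PGK and Runx3 correlated in every pair (0.132 to 0.856). Replicates 1 and 3 also correlated across numbers, such as PGK 3 with Runx3 1 at 0.647, against 0.401 for 3 with 3. The numbers therefore set replicate 2 apart and do not show that 1 and 3 pair. Pairs with Isl1 or Dhh ran from -0.736 to 0.591, and the numbers do not pair them.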

Additional observations from a re-analysis of the deposited data

Results flagged for a closer look

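At 12 h after injury the response in Isl1 IP and the response in Dhh IP differed in 7 motor genes, by the test of the difference itself (edgeR interaction term, adjusted over all genes). The log2 difference, Isl1 IP response minus Dhh IP response, was -1.547 for Dync1li1 (adjusted p = 9.71e-07), -0.902 for Kif21a (adjusted p = 0.000223), -0.463 for Kif3c (adjusted p = 0.0225) and -0.413 for Kif5b (adjusted p = 0.0194), which rose more in Dhh IP. It was 1.15 for Dynll1 (adjusted p = 0.000313), 1.067 for Dync2li1 (adjusted p = 0.00136) and 0.395 for Dctn5 (adjusted p = 0.0404), which fell more in Dhh IP. The same test called 25.7% of all genes at that time.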

How the results depend on the processing

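Over 29 comparisons 292 calls of members were made, none of these changed direction under the alternatives run, 220 held under every alternative run and 68 were lost when some 1 library was left out. DESeq2 kept 289 of the calls, RLE size factors 286, no FPKM filter 285 and the replicate block 287. With RLE size factors Isl1 IP against PGK IP gave 6 calls in place of 3, and Isl1 input at 4 h 1 in place of 2. With DESeq2 Isl1 IP against PGK IP gave 7, Isl1 IP at 4 h 2 in place of 0, Isl1 input 5, 3 and 3 at 4, 12 and 24 h in place of 2, 1 and 1, the Isl1 IP minus input response at 12 h 1 in place of 0, and the Isl1 minus Dhh response at 24 h 2 in place of 0. With no FPKM filter Isl1 IP against PGK IP gave 7 and Isl1 IP against input 21 in place of 12, over more genes tested. Without the second pull-downs Isl1 IP against PGK IP gave 5. Without the 4 pull-downs that stand apart, Runx3 IP against Adv IP gave 28 calls in place of 18, Isl1 IP against Adv IP 9 in place of 0, Isl1 IP against PGK IP 5, and IP against input 20 in Isl1 and 17 in PGK mice. There Kif2a, not called with all libraries (-0.06 in PGK IP over input), was called at 0.223. Fitting only the groups compared gave 2 calls for PGK IP against input in place of 11, 12, 5 and 3 for Isl1 IP at 4, 12 and 24 h in place of 0, 3 and 5, 5 and 7 for Isl1 input at 4 and 12 h, and 2 each for Dhh IP at 4 and 24 h in place of 0 and 1, with fewer samples behind the spread. This setting was not run for supernatant against input or for differences between responses. The replicate block gave 5 calls for Isl1 IP against PGK IP, 19 for Isl1 IP against input, 17 for PGK IP against input in place of 11, 20 for supernatant against input in place of 12, 1 for Isl1 IP at 4 h, and 0 for Isl1 input at 4 and 12 h, and moved no other count by over 1.5 times. For Runx3 IP against Adv IP the block gave 20 calls in place of 18. Same-numbered libraries had a median correlation of 0.098 between times of Isl1 IP, -0.06 of Isl1 input and 0.03 of Dhh IP, so these share a number only. The causes were not tested.

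Leaving out 1 library gave 31 to 37 calls for Dhh IP against Isl1 IP, 32 to 34 against Adv IP and 31 to 35 against PGK IP, 17 to 18 for Runx3 IP against Isl1 IP and 15 to 21 against Adv IP, 2 to 5 for Isl1 IP against PGK IP, 5 to 18, 13 to 17, 27 to 31, 29 to 32 and 4 to 12 for IP against input in Isl1, Adv, Runx3, Dhh and PGK mice, and 10 to 13 for supernatant against input. In the injury series it gave 0 to 1, 0 to 1 and 3 to 11 for Isl1 IP at 4, 12 and 24 h, 0 to 1, 0 to 1 and 1 to 5 for Isl1 input, 0, 7 to 13 and 0 to 1 for Dhh IP, and 0, 6 to 8 and 0 to 1 for the Isl1 minus Dhh response. The 1 call for Isl1 IP at 4 h came without 4 h replicate 1, and the 1 for the Isl1 minus Dhh response at 24 h without Dhh 24 h replicate 1 or Dhh naive replicate 2.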
